A study of Mus musculus with 18 samples.

Results

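The comparison described here is polarization without progranulin: 3 RNA-seq libraries of PGRN knockout macrophages driven to the M1 state against 3 libraries of PGRN knockout macrophages driven to the M2 state. They are 6 of the 18 libraries in a mouse study whose title concerns a TNFR2 and 14-3-3ε complex in macrophage plasticity. All libraries came from bone marrow-derived macrophages on the C57BL/6 background. Cells were grown for 7 days in medium with 10% fetal bovine serum and 10 ng/ml M-CSF, the growth factor that turns marrow precursors into macrophages. M1 cells then had 100 ng/ml lipopolysaccharide (LPS) with 20 ng/ml interferon gamma for 18 hours, and M2 cells had 20 ng/ml IL-4 for 18 hours. Besides the PGRN knockout, each stimulation has 3 wild-type (WT) libraries and 3 libraries of a myeloid knockout of 14-3-3e. PGRN is the progranulin gene, Grn, and 14-3-3e is the gene Ywhae. The 6 libraries were taken by their labels and all 43309 genes of the table were considered. The labels do not say whether the 3 libraries of a group came from separate mice or cultures, so the p-values cover no more than the scatter among these libraries, which may be technical.

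Macrophages change their programme with the signals they meet. LPS acts through Toll-like receptor 4 on NF-κB and on interferon regulatory factors, and interferon gamma acts through its own receptor. Together they switch on inflammatory cytokines, antimicrobial GTPases and nitric oxide production. IL-4 acts through STAT6 and switches on arginase, lectin receptors and chitinase-like proteins. Progranulin is a secreted glycoprotein made in large amounts by macrophages. It is carried to lysosomes, where it is cut into granulins, and it has been reported to bind TNF receptors.

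Stretches of promoter are printed for some of the genes that changed, not for the strongest changes as a set. Every stretch printed holds a motif match, and a link between the letters and the changes was not tested. The stretches were read from RefSeq promoters on the GRCm38.p6 build, which matched 11020 of the 15471 genes tested. Interferon-stimulated response elements (ISRE) are bound by interferon regulatory factors, and were searched as GAAA and GAAA with any 2 bases between them. Gamma-activated sites (GAS), named for the response to interferon gamma, were searched as TTC and GAA with any 3 bases between them, and STAT6-like sites as the same letters with any 4 bases between. κB-like sites, bound by NF-κB, were searched as GGGA and TTTCC with any 1 base between them. Each search covered both strands of the 250 bases before the start site. All 4 motifs differ in length or letters, but adjoining ISRE-like matches can overlap, as in Isg15. Capitals mark the matches, and each line is written 5′ to 3′ on the gene's strand. The first 3 promoters belong to interferon-induced genes that rose in M1 cells.
Cxcl10, chr5:92349070-92349129, minus strand: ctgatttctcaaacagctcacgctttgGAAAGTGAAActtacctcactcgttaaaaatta
Isg15, chr4:156200849-156200923, minus strand: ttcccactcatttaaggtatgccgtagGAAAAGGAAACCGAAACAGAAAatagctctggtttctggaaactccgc
Irgm1, chr11:48871426-48871485, minus strand: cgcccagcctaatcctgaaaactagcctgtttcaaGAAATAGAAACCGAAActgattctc

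The next promoters hold a GAS-like match (Fcgr1 and Socs3, higher in M1), a κB-like match (Nfkbia, higher in M1) and a STAT6-like match (Retnla, lower in M1). Fcgr4 is shown because its change differed from WT, and Chil3, an M2 gene, because its match is GAS-like and not STAT6-like. Isg15 was chosen for printing after its values were seen.
Fcgr1, chr3:96294045-96294104, minus strand: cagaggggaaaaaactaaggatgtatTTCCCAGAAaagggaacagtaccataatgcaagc
Socs3, chr11:117969487-117969546, minus strand: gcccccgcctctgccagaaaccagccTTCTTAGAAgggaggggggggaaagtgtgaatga
Nfkbia, chr12:55492653-55492712, minus strand: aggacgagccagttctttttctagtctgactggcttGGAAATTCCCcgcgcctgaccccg
Retnla, chr16:48842439-48842498, plus strand: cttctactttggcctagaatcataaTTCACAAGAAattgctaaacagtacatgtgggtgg
Fcgr4, chr1:171018826-171018885, plus strand: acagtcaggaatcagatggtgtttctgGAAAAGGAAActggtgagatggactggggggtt
Chil3, chr3:106167705-106167764, minus strand: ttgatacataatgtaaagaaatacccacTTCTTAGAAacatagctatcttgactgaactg

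An ISRE-like match was present in 3.39% of all 11020 promoters. Among the 507 promoters of genes over 4-fold higher in PGRN knockout M1 cells it was present in 78, or 15.4%. Among the 252 promoters of genes over 4-fold lower it was present in 8, or 3.18%. GAS-like matches stood in 7.20% of all promoters, 12% of the first group and 8.33% of the second. STAT6-like matches stood in 5.79% of all promoters, 7.50% of those over 4-fold higher and 9.92% of those over 4-fold lower. The κB-like letters were rarer, at 0.490% of all promoters, 2.37% of the higher and 0.794% of the lower group. Of the fixed gene lists described below, 9 of 13 promoters of the interferon gamma list held an ISRE-like match and 8 of 13 a GAS-like match. In the list of IL-4 target genes 7 of 20 promoters held a STAT6-like match and none an ISRE-like match. STAT6-like letters were also present in 4 of 20 type I interferon promoters, of which 8 held an ISRE-like match. ISRE-like matches were in 1 of 11 promoters of the MHC class I list and in none of the 15 of the NF-κB list or the 14 of cholesterol synthesis, and κB-like letters in 2 of the 15 of the NF-κB list. These are letter matches, with no measurement of binding.

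The targeted gene was checked first. Grn (ENSMUSG00000034708, chr11:102430315-102437048 on GRCm38, plus strand) had 497, 212 and 232 normalized counts in M1 libraries of the PGRN knockout and 24.4, 23.9 and 32.2 in its M2 libraries. WT cells had 91070, 81989 and 91739 in M1 against 30086, 29365 and 34556 in M2. Every PGRN knockout library was thus far below every WT library, as its label says. The low remaining signal was still higher in M1 than in M2, by 3.40 ± 0.22 on the log2 scale (SE, n = 3 and 3, adjusted p = 4.2e-09), and in WT the same contrast was 1.50 ± 0.22. The labels used here do not say which part of the gene was removed. Ywhae, the other gene targeted in the study, was at 8542, 8815 and 8516 in PGRN knockout M1 against 7949, 7432 and 7792 in M2. Its log2 change of 0.16 ± 0.08 did not pass the test (adjusted p = 0.11), and its sign turned to -0.062 when every library was scaled to the same total.

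Throughout, values are the study's normalized counts, and changes are M1 minus M2 on the log2(normalized count + 1) scale, which understates the change of low genes. The test was limma across 15471 genes with Benjamini-Hochberg adjustment, at an adjusted p of 0.05. Recovered depth was 9587822 to 51690030 reads in the M1 libraries and 13654295 to 58782676 reads in the M2 libraries of the PGRN knockout, and 5157638 to 105315616 reads over all 18. One read equals 0.337 to 2.49 normalized counts in the PGRN knockout libraries, so values of a few counts rest on few reads. Component 1 of the principal components, with 60.2% of the variance, separated all M1 from all M2 libraries, and component 2, with 12.4%, set the PGRN knockout apart from the other genotypes. In WT M2 replicate 3, 12.2% of the signal lay in rRNA-like genes, and in WT M1 replicate 2 it was 1.59%. The other libraries were at 0.0986% or less.

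**Figure D1:**
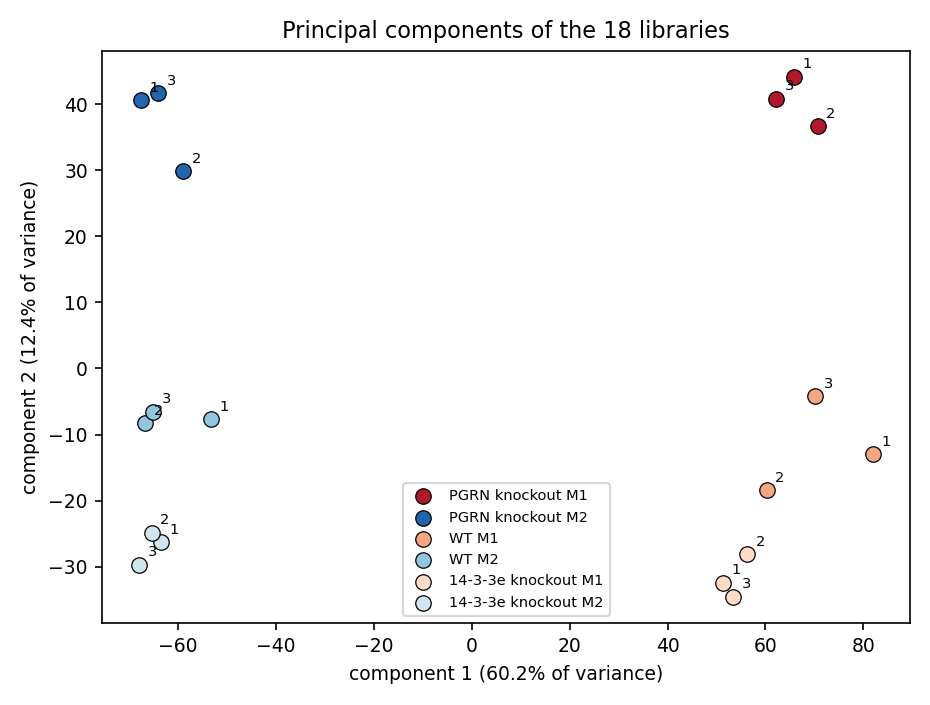
Principal components of the 18 libraries from log2(normalized count + 1) of 11699 genes. Points are libraries, numbered by replicate; component 1 (60.2% of variance) is on the horizontal and component 2 (12.4%) on the vertical axis. M1 libraries lie right and M2 libraries left, and the 6 PGRN knockout libraries lie highest, between 29.9 and 44.2 on component 2.

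Macrophage markers were present in all 6 libraries. Csf1r, the M-CSF receptor, was at 30105, 19313 and 31856 in M1 against 31736, 24268 and 29262 in M2, values that overlap. Emr1, which encodes F4/80, was at 58271, 40285 and 62015 in M1 against 14895, 11605 and 14876 in M2. Of 18 macrophage identity genes 11 were higher in M1, 1 was lower and 6 did not pass, where 25.0% of all genes tested were higher and 26.8% lower. The one lower gene was Cebpa, a myeloid transcription factor, with 1790, 1848 and 1594 in M1 against 4109, 3978 and 4252 in M2. Aif1, an actin-binding protein of activated macrophages, rose from 278, 340 and 346 in M2 to 9237, 8693 and 8762 in M1. Csf1r and Emr1 were chosen as examples after their values were seen.

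Markers of other cells were low, with an exception. Summed counts of 12 T and NK cell genes were 132 to 174 in M1 and 44.1 to 70.8 in M2, and Cd3d, Cd3e, Cd3g and Cd8a did not pass the filter on low values. Of the 8 tested, Cd247, Lck, Ncr1 and Nkg7 were higher in M1, none was lower and 4 did not pass. All genes tested were higher in 25.0% and lower in 26.8%. The calls of Cd247 and Nkg7 were each lost without any 1 of 4 libraries. Over 12 neutrophil genes the sums were 1393 to 3230 in M1 and 1035 to 3914 in M2, with Ly6g at 0 in all 3 M1 libraries. Of the 10 tested none was higher in M1, 7 did not pass, and Mpo, Elane and Cxcr2 were lower. The change of Mpo lay between -4.90 and -3.56 under the alternatives. Elane lost its call by voom, and Cxcr2 at equal depth and without M1 replicate 1 (adjusted p up to 0.0638). Over 10 B and plasma cell genes the sums were 963 to 3172 in M1 and 949 to 2629 in M2. Mast cell and basophil sums over 10 genes were 313 to 660 in M1 and 255 to 468 in M2. Erythroid and megakaryocyte sums over 12 genes were 806 to 1198 in M1 and 957 to 1246 in M2, with Car1 at 0 in all 6 libraries. The dendritic list (10 genes) summed to 40799 to 46894 in M1 and 2886 to 3275 in M2, almost all of it Bst2, which is also induced by interferon.

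Library 2 of both stimulations stood apart in these markers. Igkc, the immunoglobulin kappa constant region, was at 102, 954 and 109 in M1 against 72.7, 711 and 90.4 in M2. S100a9, a neutrophil calcium-binding protein, was at 497, 1374 and 722 in M1 against 275, 1068 and 406 in M2, and Cpa3, a mast cell protease, was at 44.8 and 36.4 in the libraries numbered 2 and at 10.7 or less in the others. These genes were chosen after their values were seen, and the part of such cells in the results was not tested. Without both libraries numbered 2 the count of genes past the threshold was 6527, against 8014 with all 6.

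Connective tissue genes were the exception in level. The 13 stromal markers summed to 340410 to 392470 in M1 and 292350 to 360610 in M2. Collagen genes took between 0.722 and 0.909% of the signal in PGRN knockout libraries. Their share was 0.887 to 1.80% in WT libraries and 1.64 to 2.48% in those of the 14-3-3e knockout. Of the 13 markers 4 were higher in M1, 3 lower and 6 did not pass. For all genes tested the shares were 25.0% higher and 26.8% lower. Acta2, smooth muscle actin, was at 8609, 8170 and 9286 in M1 against 23411, 28761 and 26583 in M2, and Dcn, a matrix proteoglycan, was at 763, 752 and 1051 in M1 against 291, 244 and 376 in M2. In bulk samples fewer cells of a type and less RNA per cell cannot be told apart.

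Over the whole transcriptome 8014 of the 15471 genes tested differed between M1 and M2 in the PGRN knockout, or 51.8%. Of these 3863 (25.0% of genes tested) were higher in M1 and 4151 (26.8%) were lower. Counts of list members below are to be read against these shares. With a change of over 2-fold as well, 1514 genes (9.79%) were higher and 1395 (9.02%) were lower. Libraries of the 2 states did not overlap in 31.3% of genes in the upward and 34.5% in the downward direction. When every library was scaled to the same total, the median change of all genes moved from -0.04 to -0.26, and 2464 of 8197 passing genes (30.1%) were higher in place of 48.2%. Directions of small changes therefore rest on the scaling and are to be read against that shift. No unstimulated library is among the 18, so a gain in one state and a loss in the other cannot be told apart.

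The genes with the greatest increase in M1, among those named by rule, came from the chemokine, acute-phase and interferon systems. Ccl5, a chemokine for T cells and monocytes (ENSMUSG00000035042, chr11:83525778-83530518), went from 38, 34.1 and 49 in M2 to 115100, 98461 and 108300 in M1, 11.35 ± 0.40 on the log2 scale (limma, adjusted p = 1.5e-11). Saa3, a serum amyloid A protein made by activated macrophages (chr7:46711998-46715700), was at 198, 185 and 267 in M2 and 314680, 255670 and 306090 in M1, a change of 10.40 ± 0.20. Slfn4 rose by 10.23 ± 0.27 and Slfn1 by 9.90 ± 0.29. Both are Schlafen genes, whose close copies may share reads. Ms4a4c, a membrane protein of the MS4A family, rose by 10.05 ± 0.42, from 8.83, 18.9 and 16.9 to 16140, 16465 and 15502.

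Receptors for bacterial products were among the same genes. Fpr2 and Fpr1, receptors for formylated peptides that guide phagocytes, rose by 9.88 ± 0.27 and 9.95 ± 0.40, and they too are near copies of each other. Marco, a scavenger receptor for bacteria, was at 4.75, 8.43 and 7.66 in M2 and 8687, 4681 and 8004 in M1. Clec4e, the Mincle receptor for mycobacterial glycolipid, rose by 8.74 ± 0.15, from 17.7, 16.5 and 18.4 to 9571, 6158 and 8410. Over the list of 20 Toll-like and pattern recognition receptors 17 were higher in M1, 1 was lower and 2 did not pass, with a median change of 2.39. Tlr2, which senses lipopeptides, rose by 4.09 ± 0.14, and Cd14, which hands LPS to its receptor, rose by 2.86 ± 0.17. Tlr4, the LPS receptor itself, was the member that fell. It had 1133, 1195 and 1095 in M1 against 1628, 1503 and 1468 in M2, and without M2 replicate 1 its adjusted p was 0.0543. Myd88, the adaptor of most Toll-like receptors, rose by 1.83 ± 0.07.

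**Figure D2:**
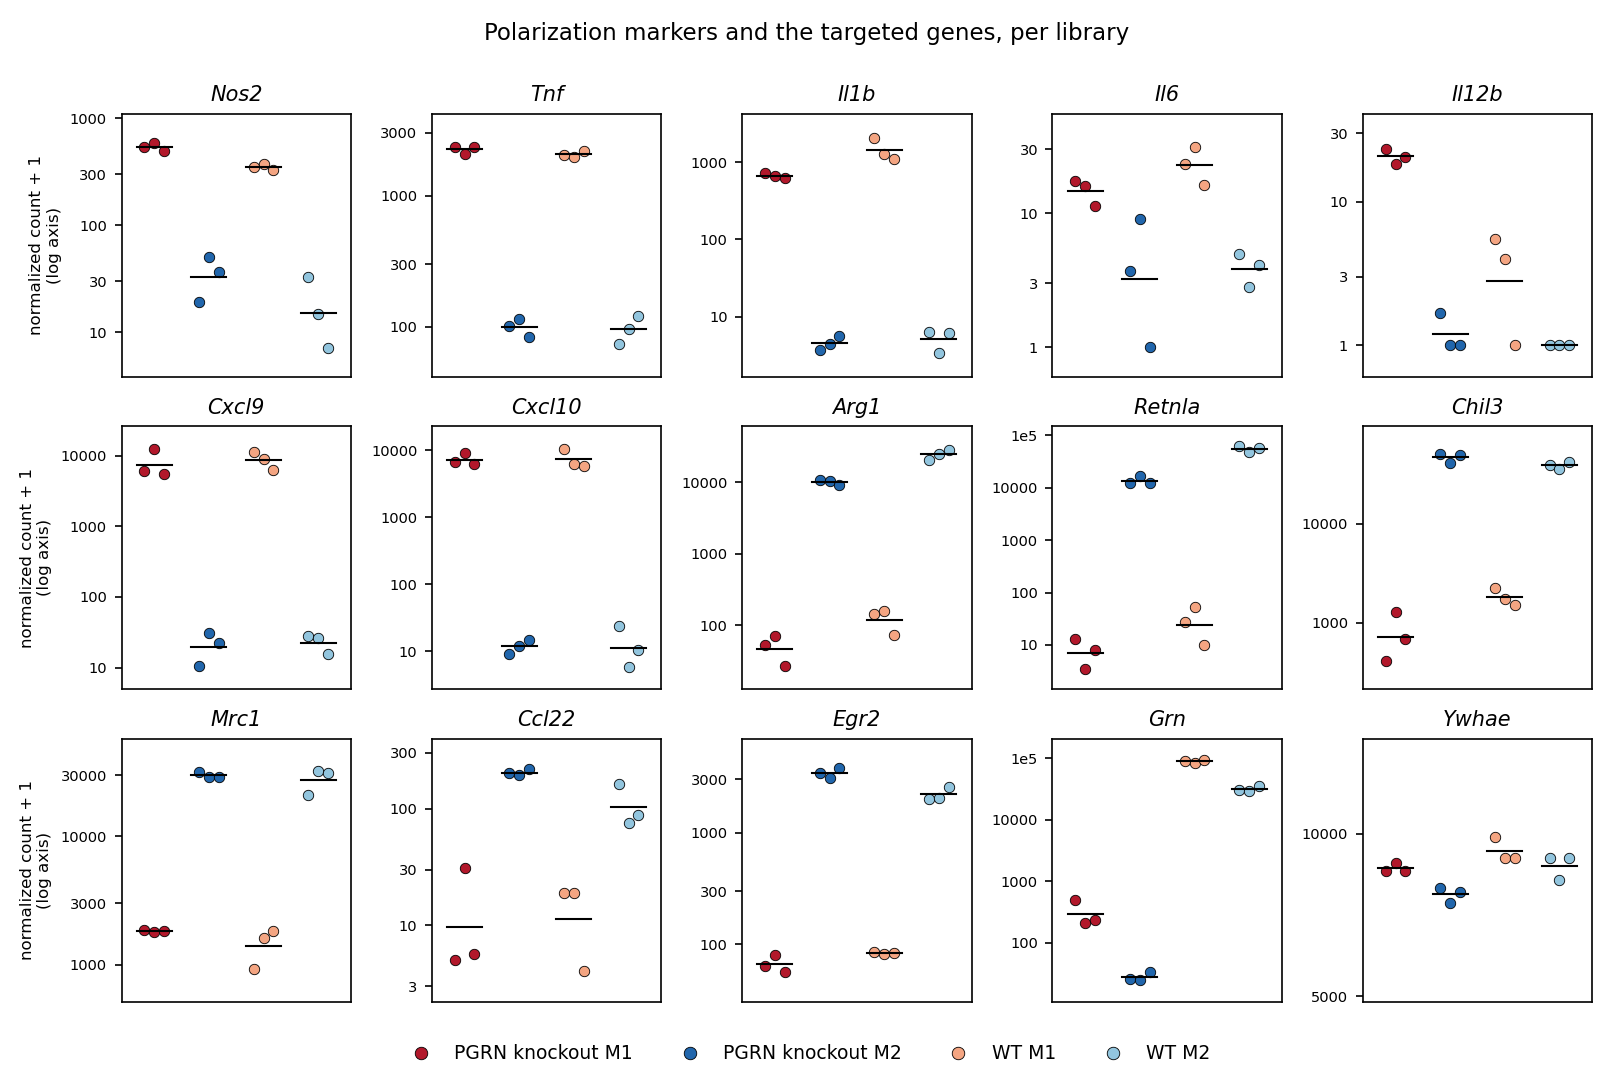
Normalized count + 1 on log axes for 15 marker and targeted genes, 1 point per library, in PGRN knockout and WT cells. Horizontal lines are means of the 3 libraries on the log scale. M1 markers such as Nos2, Tnf and Cxcl10 are higher in both M1 groups, M2 markers such as Arg1, Retnla and Mrc1 are higher in both M2 groups, and Grn is low in all 6 PGRN knockout libraries.

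Cytokine genes rose in most cases. Of 18 listed 16 could be tested (Il23a and Csf2 stayed under the filter), and 13 were higher in M1, none was lower and 3 did not pass, with a median of 3.11 against -0.04 over all genes. Tnf, the central inflammatory cytokine, was at 2357, 2072 and 2359 in M1 against 100.5, 113 and 82.8 in M2, a change of 4.51 ± 0.15. Il1b rose by 7.22 ± 0.28, from 2.72, 3.37 and 4.60 to 720, 665 and 621. Both groups of libraries are far apart for these genes. Il6 was low in all of them, at 16.4, 14.9 and 10.2 in M1 against 2.72, 8.09 and 0 in M2, and passed with a change of 2.17 ± 0.60 (adjusted p = 6.1e-03) that was 1.33 without M2 replicate 3. Il12b, the shared subunit of IL-12 and IL-23, was at 22.5, 17.4 and 19.5 in M1 against 0.679, 0 and 0 in M2, again a low gene. Il15, a survival factor for NK and memory T cells, rose by 3.09 ± 0.13. Ptges, the enzyme for prostaglandin E2, rose by 4.17 ± 0.15, from 128, 104 and 107 to 2494, 1611 and 2139. The anti-inflammatory cytokine Il10, named after its values were seen, was also higher in M1, at 299, 351 and 295 against 12.2, 7.76 and 6.13.

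Among 18 chemokines 13 were higher in M1, 3 were lower and 2 did not pass. Cxcl9, Cxcl10 and Cxcl11, the interferon-induced ligands of CXCR3 on T cells, rose by 8.58 ± 0.54, 9.27 ± 0.47 and 8.37 ± 0.35. Cxcl10, whose promoter is printed above, went from 8.15, 10.8 and 13.8 to 6578, 9059 and 6290. Ccl12, a ligand of CCR2, rose by 5.05 ± 0.21, and Cxcl16, a membrane-bound ligand of CXCR6, by 3.50 ± 0.12. The 3 that were lower in M1 are the chemokines associated with IL-4. Ccl22 was at 199, 191 and 216 in M2 and 4.09, 29.9 and 4.65 in M1, Ccl17 at 13.6, 18.5 and 16.9 in M2 and 2.05, 0 and 0.465 in M1, and Ccl24 at 188, 273 and 158 in M2 and 4.09, 7.47 and 8.37 in M1. Ccl17 and Ccl22 attract CCR4-bearing T cells and Ccl24 attracts eosinophils. Library 2 is the high one for Ccl22 in M1, without overlap with M2.

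NF-κB subunits and their feedback inhibitors moved together upward, with 16 of 18 higher in M1, 1 lower and 1 not past the test. Nfkbia, which encodes the inhibitor IκBα and holds the κB-like letters shown above, was at 5084, 5164 and 5292 in M1 against 623, 623 and 627 in M2, a change of 3.05 ± 0.08. Bcl3, a nuclear IκB protein, rose by 3.02 ± 0.09, Birc3, a ubiquitin ligase of the TNF receptor complex, by 2.16 ± 0.09, and Socs3, an inhibitor of cytokine signalling, by 3.13 ± 0.08. Rel, the subunit c-Rel, was the one that fell, with 129, 97.1 and 93.9 in M1 against 268, 202 and 239 in M2.

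All 28 genes of the type I interferon response were higher in M1, with a median change of 5.62, where 25.0% of all genes tested were higher. Ifit2, which binds viral RNA, was at 35836, 35748 and 34146 in M1 against 168, 233 and 184 in M2, a change of 7.50 ± 0.14. Zbp1, a sensor of Z-form nucleic acid, rose by 6.64 ± 0.14, Usp18, which removes ISG15 from proteins, by 6.34 ± 0.12, and Isg20, an exonuclease, by 5.80 ± 0.12. Ifnb1, interferon beta itself, was at 26.6, 29.9 and 20.5 in M1 with no read in the 3 M2 libraries. Against a floor of 3 reads in each M2 library that is at least 10.1-fold higher. Isg15, with its 3 adjoining ISRE-like matches, was at 27374, 28708 and 24618 in M1 against 143, 262 and 115 in M2. Between 27 and 28 of the genes were higher under each of the alternatives tried.

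Of 20 interferon gamma genes 19 were tested, and 18 were higher in M1 and 1 lower. Irgm1, a GTPase that attacks vacuoles holding microbes, was at 14874, 15767 and 15381 in M1 against 869, 1088 and 976 in M2, a change of 3.98 ± 0.09. Igtp of the same family rose by 4.89 ± 0.15 and Gbp2, a guanylate-binding protein, by 6.10 ± 0.17. Fcgr1, the high-affinity IgG receptor, rose by 5.96 ± 0.12, from 431, 463 and 486 to 30711, 27518 and 27943. Both GTPase families have close copies that may share reads. Ciita, the master factor of MHC class II genes, was the member that fell, with 32.7, 12.5 and 31.6 in M1 against 342, 305 and 405 in M2. That is a change of -3.83 ± 0.45.

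Antigen presentation divided by class. All 13 genes of MHC class I presentation were higher in M1, with a median of 2.37. H2-K1, a class I heavy chain, went from 21187, 21361 and 20947 in M2 to 144660, 156990 and 145180 in M1. Tap1, which pumps peptides into the endoplasmic reticulum, rose by 3.83 ± 0.08, B2m, the class I light chain, by 2.08 ± 0.07, and Tapbp, the loading factor tapasin, by 2.40 ± 0.09. Of 10 MHC class II genes 3 were higher, 1 was lower and 6 did not pass, with a median of -0.04. Among all genes tested 25.0% were higher and 26.8% lower. H2-DMa, a class II peptide loader, had 612, 573 and 607 in M1 against 932, 915 and 1076 in M2, and its call was lost without M2 replicate 3 (adjusted p = 0.0569). The 3 higher were the class II modulator H2-Oa and the proteases Ctss and Lgmn, with changes of 2.82 ± 0.49, 0.72 ± 0.14 and 0.40 ± 0.08. With other scaling, filters or a library left out, 2 to 4 of the 10 were higher and 0 to 4 lower.

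Enzymes of nitric oxide, itaconate and arginine metabolism were opposed, with 11 of 14 higher in M1, 2 lower and 1 not past the test. Irg1 (Acod1, chr14:103046977-103056573), which makes itaconate, went from 12.2, 15.8 and 9.20 to 25140, 22025 and 23054, a change of 10.80 ± 0.28. Nos2, the inducible nitric oxide synthase (chr11:78920787-78960254), was at 538, 588 and 495 in M1 against 18.3, 49.9 and 35.3 in M2, a change of 4.04 ± 0.47. The groups do not overlap in either. Gch1, which makes the cofactor of Nos2, rose by 2.82 ± 0.16, Hdc, the histamine enzyme, by 3.49 ± 0.37 and Sod2, mitochondrial superoxide dismutase, by 4.04 ± 0.12. Arg1, arginase (chr10:24915221-24927484), was at 51.1, 69.7 and 26.0 in M1 against 10640, 10322 and 9184 in M2, a fall of 7.76 ± 0.41. Slc7a2, an arginine transporter, fell by 1.98 ± 0.21.

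Genes of inflammasomes and cell death were higher in M1 for 14 of 16, with none lower. Mlkl, the executor of necroptosis, rose by 3.00 ± 0.10, Casp4, the sensor of cytosolic LPS, by 2.78 ± 0.09, Casp1 by 2.06 ± 0.07 and the pore protein gene Gsdmd by 1.84 ± 0.09. Casp1 was at 4170, 4363 and 4216 in M1 against 1042, 987 and 1019 in M2, with a narrow spread in each state.

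IL-4 signalling genes divided by their place in the pathway. Of 18, 5 were higher in M1, 11 lower and 2 not past the test. The 5 that were higher are receptor chains and kinases. Il4ra, the IL-4 receptor chain, was at 12926, 15710 and 12371 in M1 against 1859, 1740 and 1858 in M2, a change of 2.90 ± 0.12. Il2rg rose by 2.35 ± 0.10, Il13ra1 by 1.06 ± 0.15, Jak3 by 1.47 ± 0.09 and Tyk2 by 0.45 ± 0.08. Downstream factors were lower in M1. Egr2, a transcription factor of the IL-4 programme, was at 63.4, 79.7 and 55.8 in M1 against 3441, 3082 and 3769 in M2, and Cish, a STAT-induced inhibitor, fell by 3.48 ± 0.13. Bhlhe40, a repressor that also controls macrophage proliferation, fell by 3.14 ± 0.08.

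Of 32 IL-4 target genes 30 were tested. In M1 29 of them were lower, none was higher and 1 did not pass, with a median of -3.91, where 26.8% of all genes tested were lower. Retnla, which encodes the secreted protein Fizz1 (chr16:48842551-48844461) and whose promoter holds the STAT6-like match shown above, was at 12.3, 2.49 and 6.97 in M1 against 12190, 16430 and 12008 in M2. Its change was -10.87 ± 0.55 (limma, adjusted p = 8.9e-10). Chil3, the chitinase-like protein Ym1, was at 403, 1262 and 688 in M1 against 50491, 41187 and 49775 in M2, and Mrc1, the mannose receptor CD206, at 1845, 1790 and 1813 in M1 against 31481, 29234 and 29076 in M2. Mgl2, a galactose lectin, fell by 8.50 ± 0.34, and Rnase2a, an eosinophil-type ribonuclease with close copies, changed by -9.42 ± 0.52. Chil4, a near copy of Chil3, had 63.2, 51.6 and 53.6 in M2 and no read in M1. With a floor of 3 reads in each M1 library it was at least 11.2-fold higher in M2. Cdh1, E-cadherin, fell by 6.50 ± 0.47, Tmem26 by 4.93 ± 0.20, Itgax, the integrin CD11c, by 3.79 ± 0.15 and Atp6v0d2, a proton pump subunit, by 3.26 ± 0.11. Dcstamp and Ocstamp, membrane proteins needed for cell fusion, fell by 3.59 ± 0.45 and 5.92 ± 0.46. The 1 member that did not pass was Tgm2, at 7715, 8476 and 6911 in M1 against 6790, 7269 and 6614 in M2. Msx3, a homeobox gene outside the list, had 158, 122 and 126 in M2 and no read in M1, at least 27.0-fold higher in M2.

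Ion channel and other genes were named by rule among the largest falls. Scn3a, a sodium channel, was at 0, 2.49 and 0 in M1 against 383, 395 and 311 in M2, and Kcnd3, a potassium channel, at 2.05, 0 and 0 in M1 against 246, 259 and 222 in M2. Slco2b1, an organic anion transporter, changed by -6.70 ± 0.61, Col6a5, a collagen chain, by -6.36 ± 0.78 and Map2, a microtubule-associated protein, by -6.06 ± 0.70. Their M1 values rest on a few reads.

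**Figure D3:**
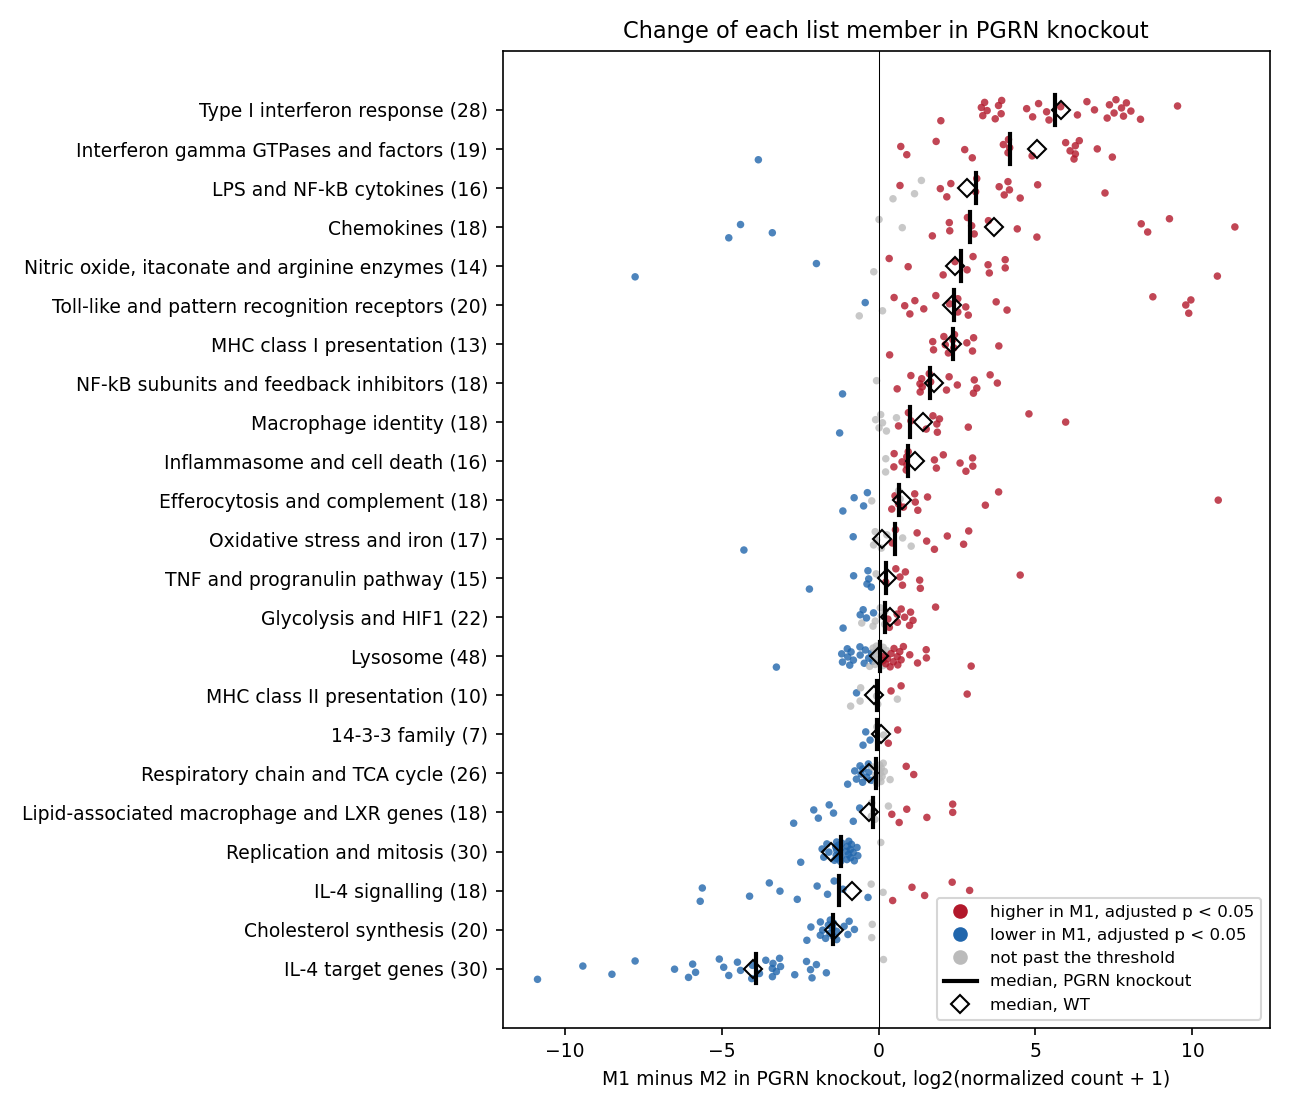
Change of each tested list member between M1 and M2 in PGRN knockout cells, in log2(normalized count + 1), 1 row per gene list with the number tested. Colored points passed the test, grey points did not, bars are medians in PGRN knockout and diamonds are medians in WT. Interferon, chemokine and cytokine lists lie to the right, IL-4 target genes, cholesterol synthesis and replication to the left.

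Genes of cholesterol synthesis were lower in M1, 18 of 20, with 2 not past the test and a median of -1.45. Sqle, squalene epoxidase, was at 518, 431 and 581 in M1 against 2302, 2172 and 2302 in M2, a change of -2.16 ± 0.19. Hmgcs1 and Cyp51, which act earlier and later in the same route, fell by 1.78 ± 0.12 and 1.86 ± 0.17. Replication and mitosis genes were lower as well, 29 of 30, with a median of -1.20. Ccne2, cyclin E2, was at 38.9, 32.4 and 53.0 in M1 against 247, 214 and 233 in M2, Mcm2 and Mcm4 of the replicative helicase fell by 1.36 ± 0.11 and 1.34 ± 0.10, and Rrm1, a subunit of ribonucleotide reductase, by 1.20 ± 0.07. The exception was E2f1, at 1297, 986 and 1176 against 1214, 972 and 1100.

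Of 18 genes of lipid handling 6 were higher, 7 lower and 5 not past the test, where 25.0% of all genes were higher and 26.8% lower. Nr1h3, the oxysterol receptor LXRα, was at 6095, 5513 and 6120 in M1 against 1149, 1253 and 1047 in M2, a change of 2.36 ± 0.14. Pltp, a phospholipid transfer protein, rose by 1.54 ± 0.10. Lpl, lipoprotein lipase, was at 19381, 19029 and 22407 in M1 against 88265, 73948 and 92681 in M2. Cd9, a tetraspanin of lipid-associated macrophages, fell by 2.70 ± 0.11. Apoe rose by 0.66 ± 0.25 with an adjusted p of 0.037, and lost its call without any one of 5 of the 6 libraries, namely M1 replicates 2 and 3 and each M2 library (adjusted p from 0.0683 to 0.117).

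Glycolysis and HIF1 genes gave 10 of 22 higher, 5 lower and 7 not past the test, with a median of 0.20 that was -0.02 under equal totals. Pfkfb3, which drives glycolytic flux, was at 5188, 5160 and 5418 in M1 against 1470, 1438 and 1566 in M2, and Slc16a3, a lactate exporter, rose by 0.99 ± 0.11 and Vegfa, an angiogenic factor, by 1.10 ± 0.12. Pfkp, an isoform of phosphofructokinase, fell by 1.13 ± 0.07, Pdk1 by 0.59 ± 0.09, Hk2 by 0.49 ± 0.13, Pgam1 by 0.39 ± 0.11 and Gpi1 by 0.16 ± 0.06. For Gpi1 the change is smaller than the scaling shift, and the call was lost without any single library except M2 replicate 2. Of 26 respiratory chain and TCA cycle genes 2 were higher, 11 lower and 13 not past the test. Beside both lists stand 25.0% higher and 26.8% lower over all genes tested. Idh3a, Idh2 and Fh1 of the TCA cycle fell by 0.98 ± 0.08, 0.59 ± 0.07 and 0.76 ± 0.09. Sdhb, a subunit of succinate dehydrogenase, went the other way, with 5207, 4671 and 4893 in M1 against 2379, 2188 and 2221 in M2, as did Cox5a of cytochrome oxidase, by 0.88 ± 0.16.

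Lysosomal genes are of interest because progranulin acts in lysosomes. Of 48, 18 were higher in M1, 15 lower and 15 not past the test, and the median was 0.04. Over all genes tested 25.0% were higher and 26.8% lower, so the share of lysosomal genes that were lower is near that of all genes. Across the alternatives 12 to 20 were higher and 12 to 21 lower, with the median between -0.19 and 0.08. Ctsc, cathepsin C, was at 28013, 28751 and 28058 in M1 against 3613, 3933 and 3438 in M2, a change of 2.95 ± 0.13. Ctsh, a further cathepsin, rose by 1.52 ± 0.08 and Npc2, which carries cholesterol out of the lysosome, by 1.52 ± 0.11. Its membrane partner Npc1 fell by 1.15 ± 0.17, and the acid lipase Lipa, which frees that cholesterol, by 1.17 ± 0.15. Gusb, β-glucuronidase, was at 9061, 7630 and 8951 in M1 against 18179, 15292 and 17653 in M2. Atp6v1a, a subunit of the proton pump, fell by 0.98 ± 0.11, and Tfeb, a factor that turns on lysosomal genes, by 0.92 ± 0.15. Tmem106b, a lysosomal membrane protein linked with progranulin in human genetics, was at 1039, 971 and 1053 in M1 against 1572, 1500 and 1550 in M2. Psap, prosaposin, which binds progranulin, did not pass, at 366620, 393940 and 379850 against 415810, 372510 and 415920 (adjusted p = 0.56). Psap was chosen after its values were seen.

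Genes of the TNF and progranulin pathway gave 8 of 15 higher, 6 lower and 1 not past the test. Here and for the 14-3-3 family below, the shares over all genes tested were 25.0% higher and 26.8% lower. Tnfrsf1a, TNF receptor 1, was at 5882, 6096 and 5562 in M1 against 3260, 3127 and 3303 in M2. Tnfrsf1b, the TNFR2 of the study's title, was at 19461, 14886 and 19148 in M1 against 7516, 6279 and 7708 in M2, a change of 1.31 ± 0.12. Traf2, an adaptor of both receptors, rose by 1.33 ± 0.11. Sort1, the sortilin that takes up progranulin, was at 612, 632 and 662 in M1 against 3160, 2603 and 3052 in M2, a fall of 2.20 ± 0.11. Kinases of the pathway fell less, Prkcd by 0.79 ± 0.09, Akt1 by 0.37 ± 0.06, Mtor by 0.34 ± 0.11, Map3k7 by 0.31 ± 0.08 and Ripk1 by 0.23 ± 0.09. The call of Mtor was lost without M2 replicate 1 (adjusted p = 0.0738), and that of Ripk1 without M1 replicates 1 or 2 or M2 replicates 1 or 2 (adjusted p from 0.0722 to 0.13). Of the 7 genes of the 14-3-3 family 2 were higher, 3 lower and 2 not past the test, all with changes of 0.61 or less in size, and 0 to 2 were higher under the alternatives. Sfn, one of the 2 higher, lost its call without any single library except M1 replicate 1 (adjusted p from 0.0543 to 0.194). Tnfrsf1b was chosen because the title names its protein.

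In the list of clearance and complement genes 11 of 18 were higher in M1, 4 lower and 3 not past the test. Cfb, complement factor B (chr17:34856374-34862518), was at 44809, 37698 and 42465 in M1 against 10.9, 27.0 and 35.3 in M2, a change of 10.82 ± 0.31. C3, its partner in the alternative pathway, rose by 3.83 ± 0.20, C2 by 3.40 ± 0.25 and Cfp, properdin, by 1.25 ± 0.12. Bridging molecules and receptors for dying cells were the ones that fell. Pros1, protein S, was at 1029, 1245 and 1068 in M1 against 1901, 1991 and 1825 in M2, and Itgav, an integrin chain, fell by 1.14 ± 0.14. Gas6 and Mfge8 fell by 0.36 ± 0.14 and 0.48 ± 0.16, and each lost its call without some single libraries: M1 replicates 1 and 3 and M2 replicates 1 and 2 for Gas6, M1 replicate 2 and M2 replicates 1 and 3 for Mfge8 (adjusted p from 0.071 to 0.181). Without M2 replicate 2 the change of Mfge8 was -0.73.

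Iron and oxidative stress genes were higher for 8 of 17, lower for 2 and not past the test for 7. All genes tested were higher in 25.0% and lower in 26.8%. Tfrc, the transferrin receptor that takes in iron, was at 1066, 1130 and 1062 in M1 against 18610, 27040 and 19105 in M2, a fall of 4.29 ± 0.13. Slc11a1, which pumps metal ions out of phagosomes, rose by 2.87 ± 0.11 and Hmox1, heme oxygenase, by 2.71 ± 0.15. Sqstm1, the autophagy receptor p62, was at 23305, 21758 and 23025 in M1 against 8064, 7350 and 8129 in M2. Gclc, the rate-limiting enzyme of glutathione synthesis, fell by 0.81 ± 0.19.

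The M1 and M2 difference of the PGRN knockout was set against that of WT, which uses 6 other libraries. In WT 8086 genes (52.3%) passed, 3890 (25.1%) higher and 4196 (27.1%) lower. With only the groups compared fitted, the count was 5403 in WT and 8953 in the PGRN knockout. The near-equal counts, and the shares of overlap given next, thus rest on a spread estimated over all 6 groups. Of the genes higher in M1, 3036 were shared, which is 78.6% of those in the PGRN knockout and 78.1% of those in WT. Of the genes lower in M1, 3206 were shared, 77.2% and 76.4%. Genes called in opposite directions numbered 15 that were higher in the PGRN knockout and 26 that were lower. Across the 15471 genes, which are not independent replicates, the changes correlated with r = 0.854. In the 14-3-3e knockout 6550 genes (42.3%) passed, 3365 (21.8%) higher and 3185 (20.6%) lower, and the correlation with the PGRN knockout was 0.870.

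**Figure D4:**
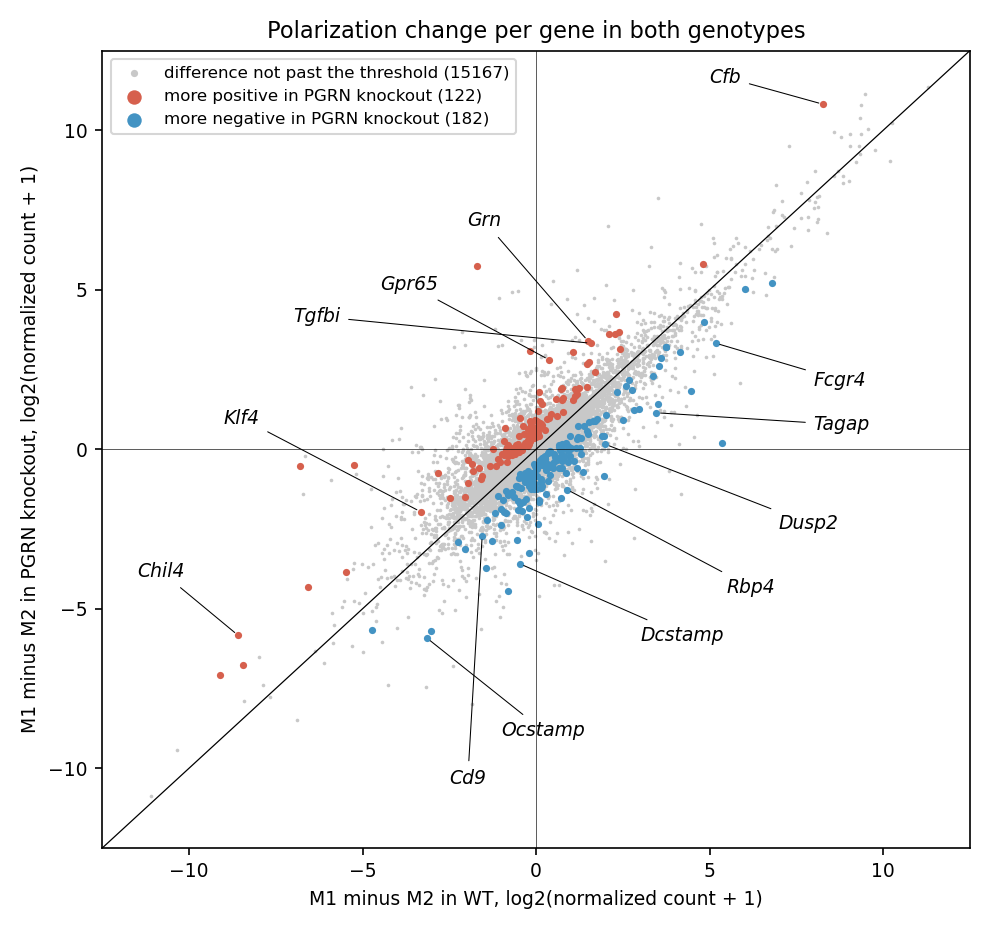
M1 minus M2 change of 15471 genes in WT (horizontal) and in the PGRN knockout (vertical), both in log2(normalized count + 1); the diagonal marks equal change. Red genes (122) had a more positive and blue genes (182) a more negative change in the PGRN knockout, and grey genes did not pass the test of the difference.

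The difference between the genotypes in the M1 and M2 change was tested gene by gene. It passed for 304 genes, or 1.96% of those tested, of which 122 (0.789%) had a more positive and 182 (1.18%) a more negative change in the PGRN knockout. Among the 304, 123 changed the same way in both genotypes, by more in the PGRN knockout for 71 and by less for 52. In 34 genes the directions were opposite, 82 were called in the PGRN knockout alone and 65 in WT alone. The count rested on single libraries. It was 153 without PGRN knockout M1 replicate 1, 148 without M1 replicate 3, 167 without M2 replicate 2, 132 without M2 replicate 3, 174 without WT M2 replicate 2 and 802 without WT M1 replicate 1. It was 202 without the 2 WT libraries rich in rRNA-like reads and 168 without both PGRN knockout libraries numbered 2. Collagen genes took a smaller share in the PGRN knockout than in most WT libraries, as given above, and the part of that in these differences was not tested.

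Gpr65, a proton-sensing receptor of leukocytes (ENSMUSG00000021886, chr12:98268635-98276644, plus strand), had the smallest p of the difference. It was at 1907, 1559 and 2124 in PGRN knockout M1 against 247, 246 and 299 in PGRN knockout M2. In WT it was at 1480, 1564 and 1536 in M1 against 1158, 1173 and 1210 in M2. The M2 libraries of the PGRN knockout are thus well below all others, while M1 libraries lie near those of WT. The M1 and M2 change was 2.81 ± 0.12 in the PGRN knockout and 0.37 ± 0.12 in WT, a difference of 2.44 ± 0.17 (limma, adjusted p = 4.37e-06, n = 3 per group). It passed under all 25 alternatives, with adjusted p from 2.6e-06 to 8.7e-05.

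Tgfbi, a secreted matrix protein induced by TGF-β (chr13:56609523-56639562), was at 23800, 14510 and 26572 in PGRN knockout M1 against 2459, 1538 and 2402 in M2. WT had 11375, 10626 and 11390 in M1 against 3228, 4000 and 3969 in M2. The PGRN knockout was above WT in M1 and below it in M2, without overlap, and the difference was 1.74 ± 0.31. Cfb was higher than in WT in M1 (24838, 16443 and 32895 in WT) and lower in M2 (82.5, 71.4 and 75.2 in WT), a difference of 2.56 ± 0.44 (adjusted p = 0.01, and 0.052 with only the groups compared fitted). Sqstm1 was at 11514, 10343 and 11271 in WT M1 against 6607, 6193 and 6828 in WT M2, which makes its change 0.75 ± 0.08 in WT against 1.53 ± 0.08 in the PGRN knockout. Both PGRN knockout groups lie above their WT groups for this gene. Socs3 changed by 3.13 ± 0.08 in the PGRN knockout and 2.43 ± 0.08 in WT, with M2 levels of 496, 567 and 546 against 922, 1075 and 961.

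Other genes changed by less in the PGRN knockout than in WT, or not at all. Fcgr4, an activating Fc receptor with the ISRE-like match printed above (chr1:171018920-171029761), was at 11741, 13653 and 11549 in M1 against 1167, 1337 and 1174 in M2. In WT it was at 12392, 10497 and 10756 in M1 against 355, 275 and 296 in M2. The M1 groups overlap and the M2 groups do not, and the difference was -1.86 ± 0.24. Tagap, a GTPase-activating protein of immune cells (chr17:7926000-7934897), was at 694, 515 and 708 in M1 against 268, 277 and 313 in M2, and in WT at 424, 431 and 393 in M1 against 25.3, 30.2 and 63.9 in M2. Its difference was -2.32 ± 0.36. Dusp2, a nuclear MAP kinase phosphatase (chr2:127336159-127338376), showed 217, 219 and 192 in M1 against 185, 183 and 195 in M2 of the PGRN knockout, groups that overlap. In WT it was at 571, 287 and 286 in M1 against 85.2, 81.6 and 103 in M2. The difference was -1.84 ± 0.32. Klf4, a transcription factor induced by IL-4 and named after its values were seen, was less raised in M2, at 877, 653 and 769 against 1166, 1572 and 1474 in WT.

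**Figure D5:**
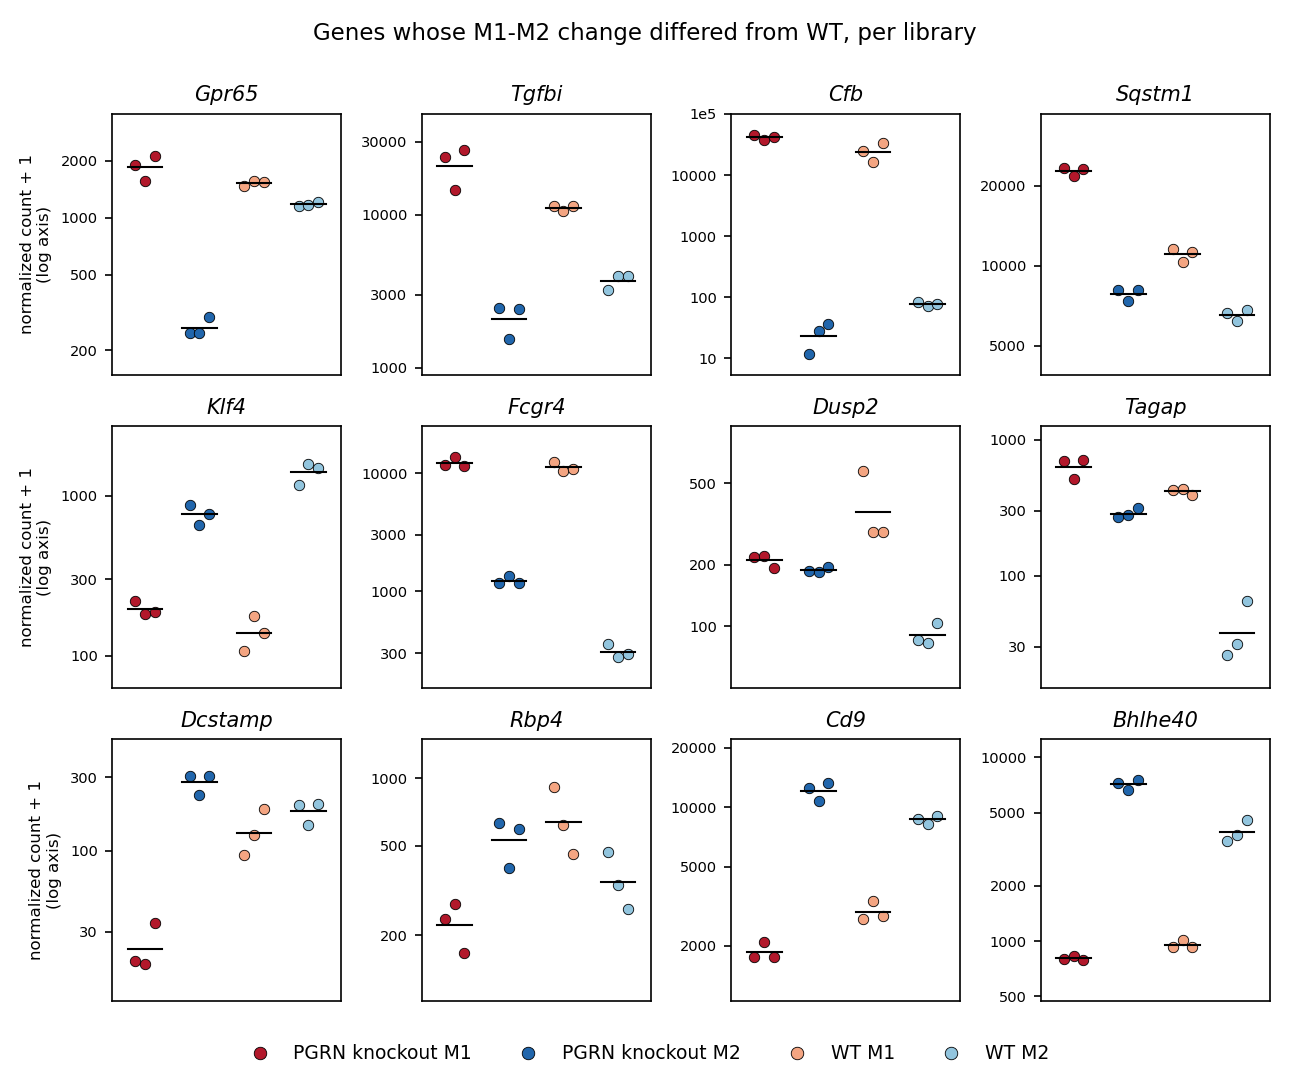
Normalized count + 1 on log axes for 12 genes whose M1 and M2 change differed between PGRN knockout and WT, 1 point per library with means on the log scale as lines. Gpr65 and Cfb are lowest in PGRN knockout M2, Tagap and Fcgr4 are lowest in WT M2, and Dcstamp is lowest in PGRN knockout M1.

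Bhlhe40 and Egr2 of the IL-4 signalling list and Cd9 of the lipid list had a larger fall from M2 to M1 in the PGRN knockout. Bhlhe40 was at 800, 827 and 792 in M1 against 7275, 6635 and 7481 in M2, and in WT at 923, 1008 and 927 in M1 against 3512, 3766 and 4557 in M2, a difference of -1.10 ± 0.12. Cd9 was at 1747, 2097 and 1758 in M1 against 12504, 10735 and 13311 in M2. WT had 2729, 3366 and 2822 in M1 and 8765, 8251 and 9064 in M2. Egr2 was higher in PGRN knockout M2 than in WT M2 (2017, 2066 and 2567), with a difference of -0.96 ± 0.20. Leaving out 1 library raised the adjusted p of Egr2 to as much as 0.0671, the libraries being PGRN knockout M1 replicates 1 and 3 and M2 replicate 3 and WT M2 replicates 1 and 2. The Egr2 call was also lost by voom and at equal depth (adjusted p up to 0.168). Of the fixed lists, IL-4 signalling held 3 genes of 18 with a more negative change than in WT (Bhlhe40, Egr2 and Socs2) and 1 with a more positive change (Klf4). Socs2 lost its call with only the groups compared fitted and at equal depth (adjusted p up to 0.289). Klf4 lost it by voom and without both PGRN knockout libraries numbered 2 (adjusted p up to 0.0798). IL-4 target genes held 2 of 30 with a more negative (Dcstamp and Ocstamp) and 1 with a more positive change (Chil4).

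The 2 IL-4 target genes with a more negative change than in WT were the cell fusion genes Dcstamp and Ocstamp, and neither call was stable. Dcstamp (chr15:39745930-39760938) was at 18.4, 17.4 and 33.0 in M1 against 305, 229 and 303 in M2 of the PGRN knockout. WT had 93.6, 125 and 186 in M1 against 197, 147 and 199 in M2, and there its change did not pass (-0.47 ± 0.45, adjusted p = 0.41). The difference was -3.13 ± 0.63 with an adjusted p of 0.0204, which became 0.0594 without PGRN knockout M1 replicate 1, 0.0565 without M2 replicate 3 and 0.0505 without WT M2 replicate 2, and 0.067 by voom. Ocstamp was at 14.3, 7.47 and 27.9 in M1 against 955, 868 and 1008 in M2, with 53.5, 66.1 and 97.5 and 785, 544 and 579 in WT. Its difference of -2.78 ± 0.65 had an adjusted p of 0.0415 and kept it under 0.05 without PGRN knockout M1 replicate 3 or WT M1 replicate 1, but not without any of the other 10 libraries, nor by voom (0.148).

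Genes that moved in opposite directions in the genotypes included Rbp4, a retinol carrier (chr19:38116629-38125281). It was lower in M1 in the PGRN knockout, at 235, 274 and 165 against 633, 396 and 592, and higher in M1 in WT, at 914, 616 and 460 against 467, 333 and 260. The WT groups overlap, since the lowest M1 library is below the highest M2 library. The difference was -2.15 ± 0.42, and the adjusted p of 0.0164 became 0.0517 without PGRN knockout M2 replicate 3 and 0.0621 at equal depth. Gpd1, glycerol-3-phosphate dehydrogenase, was at 45.0, 27.4 and 29.3 in M1 against 524, 519 and 343 in M2 of the PGRN knockout. In WT it was at 31.2, 24.0 and 39.6 in M1 against 97.1, 85.9 and 74.2 in M2. It was thus lower in M1 in both genotypes, with a difference of -2.31. That call was lost at equal depth and without both PGRN knockout libraries numbered 2 (adjusted p up to 0.221). Pros1 fell in M1 by 0.78 ± 0.09 in the PGRN knockout and changed by -0.06 ± 0.09 in WT, a difference of -0.72 ± 0.13. Serpina3h, one of a cluster of near copies whose reads may be shared, was at 254, 319 and 251 in M1 against 390, 508 and 464 in M2 of the PGRN knockout, and at 36.1 or less in every WT library. In the WT libraries 1 read equals up to 4.46 normalized counts. Within the PGRN knockout Serpina3h did not pass (limma, adjusted p from 0.0699 to 0.167 with 1 library left out). Its difference of -2.07 ± 0.44 was lost without PGRN knockout M1 replicates 1 or 3, M2 replicates 2 or 3 or WT M2 replicates 2 or 3 (adjusted p from 0.0569 to 0.072).

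For Chil4, Msx3 and Cldn11 the M1 libraries hold almost no reads, so the difference between genotypes follows the M2 level. Chil4 in M2 was at 63.2, 51.6 and 53.6 in the PGRN knockout and 250.1, 452 and 506 in WT. Msx3 in M2 was at 158, 122 and 126 in the PGRN knockout and 422, 608 and 650 in WT, and Cldn11, a tight junction protein, at 136, 120 and 115 and at 298, 362 and 391. All 3 were lower in PGRN knockout M2 libraries, without overlap. Those calls depend on how counts near 0 are treated. With a pseudocount of 0.1, by voom and at equal depth the adjusted p was 0.124, 0.716 and 0.0541 for Chil4 and 0.0959, 0.799 and 0.126 for Msx3, and by voom the difference was 1.67 for Chil4 and 0.89 for Msx3. The call of Cldn11 was lost without PGRN knockout M1 replicate 3, any PGRN knockout M2 library or WT M2 replicates 2 or 3 (adjusted p from 0.0556 to 0.0863). As bounds, Chil4 was at least 44.7-fold and Msx3 at least 62.2-fold higher in M2 than in M1 in WT.

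Groups of genes were described against WT by counts. No list passed for more than 4 members in the difference, out of 7 to 48 tested. Type I interferon genes had 1 more positive (Isg20) out of 28, chemokines 1 more negative (Ccl4) out of 18, respiratory and TCA genes 2 more positive (Sdhb and Cyc1) out of 26, and macrophage identity 1 more negative (Mpeg1) out of 18. Lysosomal, MHC, inflammasome, cholesterol and cytokine lists had none. Replication and mitosis genes had none either, with a median change of -1.20 in the PGRN knockout and -1.53 in WT. Ccl4, Cyc1 and Mpeg1 are named because the counts are small. Isg20 kept its call without any single library but lost it at equal depth (adjusted p = 0.215). Sdhb lost it without PGRN knockout M1 replicates 1 or 3, M2 replicates 2 or 3 or WT M2 replicate 1 (adjusted p from 0.0619 to 0.0777). Ccl4, Cyc1 and Mpeg1 lost it without any of 7 or 8 single libraries, the adjusted p rising to at most 0.117.

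The same test against the 14-3-3e knockout uses the same 6 PGRN knockout libraries as the test against WT, so the results share them. It passed for 627 genes (4.05%), 259 (1.67%) more positive and 368 (2.38%) more negative in the PGRN knockout. The count was 333 to 546 when any 1 library was left out. Tarm1, an activating receptor of myeloid cells, was at 634, 593 and 591 in M1 against 69.3, 72.8 and 76.6 in M2 of the PGRN knockout, and in the 14-3-3e knockout at 119, 169 and 41.3 in M1 against 203, 224 and 150 in M2. WT lay between, at 406, 341 and 347 in M1 against 204, 178 and 145 in M2. Its difference was 4.04 ± 0.48 against the 14-3-3e knockout and 1.98 ± 0.48 against WT, where the adjusted p of 0.0487 rose to between 0.0639 and 0.11 without any single library except WT M1 replicate 1. Ednrb, the endothelin B receptor, was at 1555, 2425 and 1424 in M1 against 623, 499.8 and 418 in M2 of the PGRN knockout, and at 743, 474 and 567 in M1 against 1772, 1214 and 1004 in M2 of the 14-3-3e knockout, the opposite order.

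Cxcl11 reached 389, 421 and 293 in PGRN knockout M1 against 1671, 2502 and 2334 in 14-3-3e knockout M1, with at most 0.676 in M2 of both. Its difference was -2.44 ± 0.50 (adjusted p = 0.0107), a call that was lost with a pseudocount of 0.1 (0.448), by voom (0.472) and at equal depth (0.107). Apol9b, an interferon-induced apolipoprotein L gene with a near copy, was at 1792, 1980 and 1524 in M1 of the PGRN knockout and 1593, 1696 and 1405 in M1 of the 14-3-3e knockout. In M2 it was at 1.36, 5.06 and 0 against 17.6, 29.0 and 19.5, so that the groups do not overlap in M2. With a pseudocount of 0.1 the adjusted p of its difference was 0.0679. Map2 was at 10.2, 0 and 6.51 in M1 of the PGRN knockout and 48.6, 86.0 and 28.6 in M1 of the 14-3-3e knockout, and its call was lost without any 1 of 5 libraries (PGRN knockout M2 replicates 1 and 3, 14-3-3e knockout M1 replicates 1 and 2 and M2 replicate 1, adjusted p from 0.0527 to 0.0689). Gpr65 changed by 0.03 ± 0.12 in the 14-3-3e knockout, where M2 was at 1110, 1319 and 1162.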

How the data were processed

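RNA was sequenced from 18 libraries, 3 in each of 6 groups, and the 6 PGRN knockout libraries are described here. STAR, RSEM 1.3.1, DESeq2 and the build GRCh38 are named in the submitters' processing notes. The gene identifiers are mouse, so that build was not used, and positions are those of GENCODE M21 on GRCm38. The deposited values are log2(normalized count + 1) per gene, as the values themselves show: after undoing the log2, 100% of the values in each library were whole multiples of 1 step within 0.1, and that step gave the reads. Of 43309 identifiers 42425 matched the annotation.

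Genes with at least 10 normalized counts in at least 3 of the 18 libraries were kept (15471). limma 3.58.1 (R 4.3.3; trend and robust) was fitted once to log2(normalized count + 1) over all 6 groups, with contrasts for M1 against M2 in each genotype and for the differences between genotypes. Benjamini-Hochberg adjusted p under 0.05 was the threshold. On simulated data with 200 changed genes of 15471, the M1 against M2 test in the PGRN knockout recovered 89% of 2-fold and 98% of 4-fold changes, with 13 unchanged genes passing. For the difference from WT these were 84%, 91% and 14. The changed genes were drawn from those with a mean of at least 100 normalized counts. Each gene had the same spread in every group, averaged over the 6 groups, and most genes were left unchanged. The rates therefore do not cover low genes or groups with a wider scatter. Python 3.11.15 with numpy 2.4.6, pandas 2.3.3 and matplotlib 3.10.9 did the rest.

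The members, the 30 lists (526 genes) and the tests were chosen with earlier results of these data known. Genes were named by rule: 15 markers, the 10 largest rises and falls with a mean of at least 100, up to 4 per list by smallest p, list members that moved against their list, and the largest differences between genotypes. Genes given as examples outside this rule were chosen after their values were seen. Alternatives were other pseudocounts, filters, scaling, voom on recovered reads, equal depth, only the groups compared, a replicate block and each replicate left out. Leaving out both PGRN knockout libraries numbered 2, or both WT libraries rich in rRNA-like reads, was added after seeing the data. Some results are not reported here.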

Additional observations from a re-analysis of the deposited data

Results flagged for a closer look

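The M1 minus M2 change differed between the PGRN knockout and WT, by limma's test of the difference itself (Benjamini-Hochberg adjusted p under 0.05, n = 3 per group), for these genes of the naming rule. More positive in the PGRN knockout were Chil4 by 2.76, Cfb by 2.56, Gpr65 by 2.44, Lipn by 2.27, Msx3 by 2.03, Tarm1 by 1.98, Grn by 1.90, Tgfbi by 1.74, Ednrb by 1.70 and Cldn11 by 1.67 on the log2 scale. More negative were Dcstamp with -3.13, Ocstamp with -2.78, Tagap with -2.32, Gpd1 with -2.31, Pcsk5 with -2.30, Rbp4 with -2.15, Serpina3h with -2.07, Fam124a with -1.86, Fcgr4 with -1.86 and Dusp2 with -1.84. Several of these calls did not hold when 1 library was left out. Lipn kept its call without PGRN knockout M1 replicate 1, any WT M1 library or WT M2 replicate 1 and lost it without any of the other 7 (adjusted p from 0.0518 to 0.0716). Ednrb kept it without PGRN knockout M2 replicate 1, WT M1 replicates 2 or 3 or WT M2 replicate 1 and lost it without the other 8 (0.0516 to 0.101), with the replicate block (0.0572) and by voom (0.0647). Fam124a kept it without PGRN knockout M1 replicate 2, M2 replicate 2 or WT M1 replicates 1 or 2 and lost it without the other 8 (0.0575 to 0.095). Pcsk5 lost it without PGRN knockout M1 replicates 2 or 3, M2 replicates 2 or 3, WT M1 replicate 2 or WT M2 replicate 3 (0.0523 to 0.0766) and by voom (0.10). The losses of Tarm1, Cldn11, Rbp4, Serpina3h, Gpd1, Dcstamp, Ocstamp, Chil4 and Msx3 are given above with their values.

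Grn is the deleted gene, whose residual signal was compared. Lipn, an acid lipase gene, was at 593, 552 and 579 in PGRN knockout M2 and 538, 882 and 928 in WT M2, groups that overlap, and at 18.4, 37.4 and 31.6 against 4.46, 12 and 6.1 in M1, groups that do not. Pcsk5, a proprotein convertase, had 38.9, 17.4 and 25.1 in M1 of the PGRN knockout against 58, 88.6 and 67.1 in WT M1.

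Against the 14-3-3e knockout the same test gave 4.04 for Tarm1, 3.38 for Apol9b, 3.10 for Chil4, 2.95 for Rnase2a and 2.93 for Ednrb, and -4.25 for Map2, -3.61 for Slco2b1, -2.68 for Dcstamp, -2.58 for Ocstamp and -2.44 for Cxcl11. Both tests use the same 6 PGRN knockout libraries. Slco2b1 was at 733, 805 and 733 in M2 of the PGRN knockout and 131, 55.8 and 40.7 in M2 of the 14-3-3e knockout. In this comparison Rnase2a lost its call without any 1 of 9 libraries (adjusted p from 0.0634 to 0.0958), all but PGRN knockout M1 replicate 2, 14-3-3e knockout M1 replicate 1 and M2 replicate 3. Slco2b1 lost it without 9 (0.0537 to 0.0799), all but PGRN knockout M1 replicates 2 and 3 and 14-3-3e knockout M2 replicate 1. Dcstamp lost it without 8 (0.0514 to 0.0774), all but PGRN knockout M1 replicate 3 and M2 replicate 2 and 14-3-3e knockout M1 replicates 2 and 3. Ocstamp lost it without 10 (0.0708 to 0.0893), all but PGRN knockout M1 replicate 3 and 14-3-3e knockout M1 replicate 2. Chil4 lost it with a pseudocount of 0.1 (0.145) and by voom (0.232), while Tarm1 and Ednrb kept it under every alternative run.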

How the results depend on the processing

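The 8014 genes of the PGRN knockout comparison ranged from 7120 to 7391 when any 1 library was left out (higher 3441 to 3547, lower 3651 to 3850), and no gene changed sides with both calls. Under equal totals 2464 were higher. Left-out libraries gave 7149 to 8597 genes in WT and 5613 to 5761 in the 14-3-3e knockout. With only the groups compared fitted, 8953 genes passed in the PGRN knockout, 5403 in WT and 7946 in the 14-3-3e knockout. The difference from WT (304 genes) was the least stable, with 132 to 802 genes when 1 library was left out, 135 with only the groups compared fitted, 126 at equal depth (15781 genes tested), 168 without both PGRN knockout libraries numbered 2 and 202 without the 2 libraries rich in rRNA-like reads. The difference from the 14-3-3e knockout (627) was 333 to 546 when 1 library was left out, 1594 with only the groups compared, 995 by voom, 323 at equal depth and 386 without both libraries numbered 2. The cause was not tested.

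Of 3670 values of named genes in the PGRN knockout comparison, 3546 kept direction and side of the threshold, 98 lost and 20 gained the call and 6 reversed. The reversed values were of changes that had not passed: Ywhae (-0.062) and Dusp2 (-0.065) under equal totals, Igj by voom (-0.70) and without PGRN knockout M1 replicate 2 (-0.38, the others left out giving up to 1.73), and Gp9 at equal depth (0.022) and without both libraries numbered 2 (0.029).

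With the replicate number as a block, 8090 genes passed in the PGRN knockout, 8185 in WT, 6670 in the 14-3-3e knockout, 347 in the difference from WT and 660 in that from the 14-3-3e knockout. The labels do not say whether the numbers pair libraries. No genotype was treated as paired in the main fit. Deviations of same-numbered M1 and M2 libraries correlated at 0.10, 0.33 and -0.09 in the PGRN knockout and 0.35, -0.01 and -0.37 in WT. The 0.33 is the pair numbered 2, which shares raised markers of other blood cells. Unlike-numbered libraries reached as much, with 0.33 for PGRN knockout M1 replicate 3 and M2 replicate 1. In WT, M1 replicate 2 and M2 replicate 3 gave 0.49. In the 14-3-3e knockout same-numbered libraries correlated at 0.51, 0.38 and 0.42, and unlike-numbered ones at -0.29 to -0.07. The 14-3-3e knockout contrasts in the main fit were unpaired all the same. Depth limits genes of a few reads, since 1 read equals up to 2.49 normalized counts.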
